A study of Mus musculus with 3 samples.

Results

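The messages described here are those of 9 genes that control the release of paused RNA polymerase II: the inhibitor Hexim1 and its 7SK partners Larp7 and Mepce, the P-TEFb kinase Cdk9 with its cyclins Ccnt1 and Ccnt2, the BET proteins Brd2 and Brd3, and the scaffold Aff4. Members were chosen by gene symbol, and 9 of 55536 annotated genes carried one of the symbols. Their messages were read in 3 libraries of total RNA, depleted of ribosomal RNA, from the cytosolic fraction of primary macrophages grown from C57BL/6J mouse bone marrow. Every library came from cells given lipid A, a ligand of Toll-like receptor 4 and the membrane anchor of bacterial lipopolysaccharide, at 100 ng/ml for 60 min. Each library started from 1 µg of RNA, with a size range of 250 to 400 in the labels. Since the libraries make up 1 group, no value here is a change caused by lipid A. The labels number biological replicates 1 to 3, list a biosample for each and give 1 donor entry for all, and they do not say that the cultures came from separate mice. Any p-value therefore speaks only for these samples, and the spread between them may be technical.

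P-TEFb is the kinase that lets RNA polymerase II leave its pause near the start of a gene, by phosphorylating the polymerase and the factors that hold it there. Much of the cell's P-TEFb is kept inactive in the 7SK particle, a noncoding RNA bound by Hexim1, Larp7 and Mepce, and it is handed to chromatin through BET proteins or the super elongation complex. In macrophages many genes that respond to bacterial products depend on this release. The proteins act in the nucleus, and what was measured here is their RNA in the cytosolic fraction.

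Annotated genes held 63944236 expected counts in replicate 1, 71989793 in replicate 2 and 69305836 in replicate 3. Markers of macrophages were abundant: 9 of 10 reached a mean of 1 TPM (a share of all transcripts, scaled for transcript length) and all 9 were called above the median gene, while Cd163 was under 1 TPM. The 10 summed to between 4859 and 9587 TPM per library. Markers of T and NK cells, B cells, erythroid cells and mast cells each summed to under 1 TPM in every library. The 8 neutrophil markers summed to between 24.9 and 31.9 TPM, mostly S100a8 and S100a9, and the 5 markers of stroma and endothelium to between 1.86 and 3.82 TPM. The nuclear RNA Malat1 stood at 417, 122 and 323 TPM in replicates 1, 2 and 3, and Neat1 at 38.9, 12.4 and 35.9 TPM. The part of nuclear RNA in the levels below was not tested. Fewer cells of a type and less RNA per cell cannot be told apart in bulk samples.

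The noncoding RNA that the group is built around was itself abundant in this fraction. Rn7sk, the mouse 7SK gene (chr9:78175303-78175633, minus strand, GRCm38), stood at 36384, 35222 and 61838 TPM, a mean of 44482 TPM ± 15043 (SD, n = 3). In raw TPM replicate 3 was the highest, and replicates 1 and 2 lay close together. Expected counts of Rn7sk were 421606, 670964 and 943121 in replicates 1, 2 and 3. The second set of deposited transcript values gave 12711, 15106 and 25536 TPM. The library's median protein-coding gene, described below, was at 9.08, 5.76 and 6.86 TPM. Against that gene Rn7sk was lower in replicate 1 than in replicate 2. TPM rises steeply for RNAs about as short as a sequenced fragment, so its level is not comparable with that of the messages. Near its start 7SK folds into the hairpin to which Hexim1 is known to bind, at repeats written GATC in DNA letters. The first 100 of its 331 bases are shown with each GATC in capitals, read from the GENCODE M21 transcripts.
Rn7sk: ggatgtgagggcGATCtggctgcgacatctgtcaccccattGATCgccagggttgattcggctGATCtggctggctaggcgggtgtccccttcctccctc
GATC reads the same on both strands, and it occurs 3 times in this stretch. Of 139316 annotated transcripts with 100 bases or more, 0.323% hold at least 3 in their first 100 bases.

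The 9 messages spanned a wide range of abundance, with Brd2 highest and Ccnt2 lowest in every library. Each gene's level was set against the library's median gene, by subtracting the median log2(TPM + 0.1) of 9123 protein-coding genes whose mean reached 1 TPM. All 9 members passed that filter. A gene was called above or below when limma's treat test placed it more than 1 log2 unit from the median gene at an adjusted p under 0.05. Brd2, Cdk9 and Aff4 were called above, Ccnt2 was called below, and the other 5 passed in neither direction. Of all tested genes 26.3% were called above and 24.5% below, so 3 and 1 of 9 are no result about the group as such. The count moved with the genes that set the median. With no filter on low values 5 members were called above and 0 below, beside 34.7% and 38% of all genes tested so. With a filter at a mean of 5 TPM 1 member, Brd2, was called above and 0 below, beside 22.3% and 8.74%, and the 4 lowest members were not tested. In the second set of deposited transcript values, in columns named as kallisto writes them, 3 were called above and 2, Ccnt2 and Mepce, below, beside 24.1% and 18.5%. The members' median level was 0.28 on the log2 scale, against -0.005 over all tested genes. Raw TPM was highest in replicate 1 for each of the 9, and so was the median gene, at 9.08 TPM against 5.76 and 6.86 TPM in replicates 2 and 3. In the second set of values the median gene was highest in replicate 3, at 4.63 TPM against 4.21 and 3.83 TPM in replicates 1 and 2. There Brd2, Cdk9, Larp7, Mepce and Brd3 were highest in replicate 3, and Aff4, Ccnt1, Hexim1 and Ccnt2 in replicate 1.

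**Figure D1:**
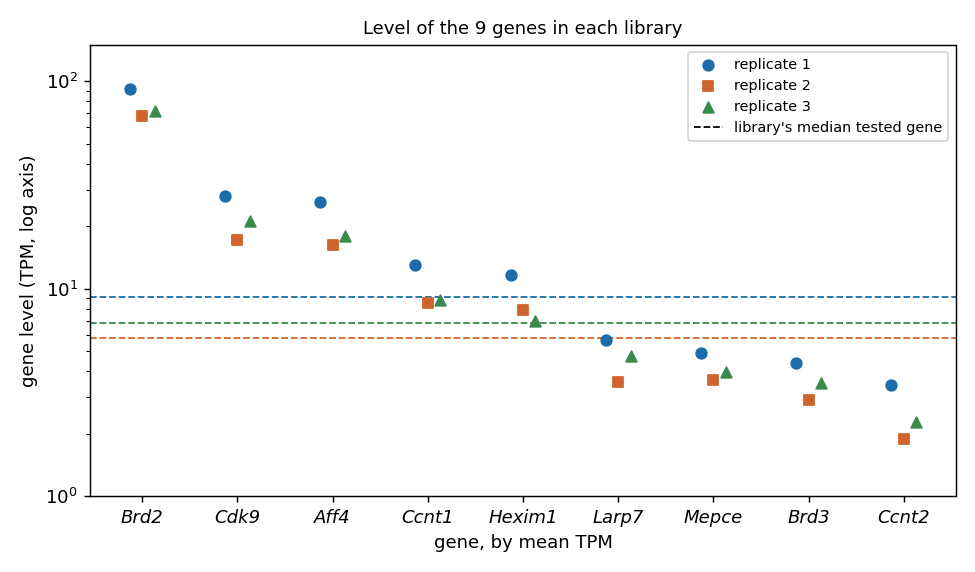
Level of each gene in TPM (log axis) in the 3 libraries, with each library's median tested gene as a dashed line in that library's colour. Brd2, Cdk9 and Aff4 lie above the median gene of their library in every replicate, and Larp7, Mepce, Brd3 and Ccnt2 lie below it in every replicate.

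Hexim1, the inhibitor that holds P-TEFb in the 7SK particle (ENSMUSG00000048878.6, chr11:103116231-103119725, plus strand), stood at 11.62, 7.86 and 7.02 TPM in replicates 1, 2 and 3, a mean of 8.83 TPM ± 2.45 (SD, n = 3), from 3446, 3831 and 2962 expected counts. Replicate 3 was the lowest in TPM and in counts, although replicate 1 had the smallest library. Its level against the median gene was 0.35, 0.44 and 0.03 on the log2 scale, a mean of 0.28 ± 0.09 (SE), and was not called (limma treat, adjusted p = 1). Hexim1 had the highest biological coefficient of variation (BCV, edgeR's relative spread between replicates beyond counting error) of the 9, at 0.121. That is an ordinary value: 49.5% of 13026 genes had a lower one. Hexim1 has 1 annotated transcript and 1 exon, which holds for 2.37% of the leading transcripts of tested genes, so no splicing choice enters its value. Its paralog Hexim2 was at 0.74, 0.22 and 0.32 TPM, under the filter. The genes whose levels lay nearest to Hexim1 in all 3 libraries were Spata2, Sertad2 and Vrk3, with largest differences of 0.05, 0.07 and 0.07 on the log2 scale.

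Larp7, which binds the end of 7SK and protects it (ENSMUSG00000027968.11, chr3:127536714-127553349, minus strand), stood at 5.63, 3.55 and 4.75 TPM, a mean of 4.64 TPM ± 1.04 (SD, n = 3), from 964, 1004 and 1147 expected counts. Mepce, the enzyme that caps the start of 7SK (ENSMUSG00000029726.16, chr5:137781906-137787655, minus strand), stood at 4.88, 3.63 and 3.95 TPM, a mean of 4.15 TPM ± 0.65 (SD, n = 3), from 1129, 1270 and 1160 expected counts. The ranges of the 2 genes overlapped. Against the median gene Larp7 lay at -0.63 ± 0.06 and Mepce at -0.77 ± 0.07 (log2, SE, n = 3), below it in every library, but within the band tested (limma treat, adjusted p = 1 for each). Within a library, Larp7 exceeded Mepce by 0.20 and 0.26 on the log2 scale in replicates 1 and 3 and was lower by 0.03 in replicate 2. That mean difference of 0.14 ± 0.15 (SD) had an exact sign-flip permutation p of 0.5 (2-sided, adjusted p = 0.5 over 15 pairs).

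Hexim1 was higher than both partners in each library. It exceeded Larp7 by 1.03, 1.12 and 0.55 on the log2 scale, a mean fold of 1.87, and Mepce by 1.23, 1.09 and 0.81, a mean fold of 2.07. With 3 libraries the smallest 2-sided p an exact sign-flip permutation test can give is 0.25, reached by each pair with the same sign in all 3 (adjusted p = 0.268 over the 15 pairs). No pair can therefore pass a threshold of 0.05, and the pairs are read by the count of libraries that share a direction and by the SD.

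Cdk9, the kinase (ENSMUSG00000009555.16, chr2:32705784-32713076, minus strand), stood at 28.06, 17.09 and 21.31 TPM, a mean of 22.2 TPM ± 5.53 (SD, n = 3), from 3761, 3715 and 3909 expected counts. Its log2 level exceeded the median gene by 1.60 ± 0.06 (SE), 3.03 times its level, and was called (limma treat, adjusted p = 5.93e-05). The library levels were 1.62, 1.55 and 1.62, and Cdk9 had the lowest BCV of the 9, 0.0825, with 3.49% of genes lower. The messages of the 7SK partners were lower. Hexim1 was lower than Cdk9 by 1.26, 1.11 and 1.59 on the log2 scale in the 3 libraries, a mean fold of 2.50, and Larp7 was lower by a mean fold of 4.67.

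Ccnt1, the cyclin found in most P-TEFb (ENSMUSG00000011960.12, chr15:98538689-98570923, minus strand), stood at 13.01, 8.57 and 8.86 TPM, a mean of 10.1 TPM ± 2.48 (SD, n = 3), from 5519, 5669 and 5004 expected counts. Ccnt2, the related cyclin (ENSMUSG00000026349.14, chr1:127774164-127808061, plus strand), stood at 3.43, 1.88 and 2.27 TPM, a mean of 2.53 TPM ± 0.81 (SD, n = 3), from 1301, 1141 and 1276 expected counts. The lowest Ccnt1 value was above the highest Ccnt2 value. Ccnt1 lay at 0.48 ± 0.06 (SE) against the median gene and was not called (limma treat, adjusted p = 1), and Ccnt2 lay at -1.50 ± 0.07, 0.354 times the median gene, and was called below (adjusted p = 0.000463). Within a library Ccnt1 exceeded Ccnt2 by 1.89, 2.13 and 1.92 on the log2 scale, a mean fold of 3.95. Cdk9 exceeded Ccnt1 by a mean of 1.12 ± 0.14 (SD, log2) and Ccnt2 by 3.10 ± 0.09, in 3 of 3 libraries each. Over protein-coding transcripts alone Cdk9 exceeded Ccnt1 by 1.76.

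Brd2, a BET protein that reads acetylated histones (ENSMUSG00000024335.20, chr17:34112023-34122634, minus strand), stood at 92.02, 67.63 and 72.13 TPM, a mean of 77.3 TPM ± 13.0 (SD, n = 3), from 23360, 29360 and 26672 expected counts. Against the median gene it lay 3.41 ± 0.07 (SE) higher in log2 units, 10.6 times it, and was called (limma treat, adjusted p = 4.04e-07). Of the tested genes 94.1% were lower. Brd3, its relative (ENSMUSG00000026918.16, chr2:27445579-27507662, minus strand), stood at 4.38, 2.92 and 3.52 TPM, a mean of 3.61 TPM ± 0.73 (SD, n = 3), from 1759, 2033 and 1977 expected counts. It lay at -0.98 ± 0.06 (SE), at the edge of the band, and was not called (adjusted p = 1). The gap between these relatives was the widest of the 15 pairs, 4.36, 4.49 and 4.32 on the log2 scale, a mean fold of 20.95. Over protein-coding transcripts alone the mean gap was 3.78. Brdt, a BET gene known from testis, was at 0.15, 0.05 and 0.09 TPM. The genes whose levels lay nearest to Brd2 in all 3 libraries were Sod1, Myl12a and Rab5c, with largest differences of 0.02, 0.07 and 0.08 on the log2 scale.

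Aff4, the scaffold of the super elongation complex (ENSMUSG00000049470.13, chr11:53350833-53421830, plus strand), stood at 26.11, 16.33 and 18.02 TPM, a mean of 20.2 TPM ± 5.23 (SD, n = 3), from 18845, 19313 and 19036 expected counts. Its log2 level exceeded the median gene by 1.46 ± 0.06 (SE), 2.75 times it, and was called (limma treat, adjusted p = 0.000285). Aff4 was slightly lower than Cdk9 in each library, by 0.10, 0.07 and 0.24 on the log2 scale. In the kallisto-style values this order was turned, with Aff4 higher by 0.39. Its partner Aff1 stood at 31.88, 20.24 and 23.04 TPM, above Aff4 in each library. In the kallisto-style values Aff1 had 11.3, 10.7 and 12.8 TPM and Aff4 13.6, 12.0 and 12.3 TPM, so Aff1 was the higher of the pair in replicate 3 alone.

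**Figure D2:**
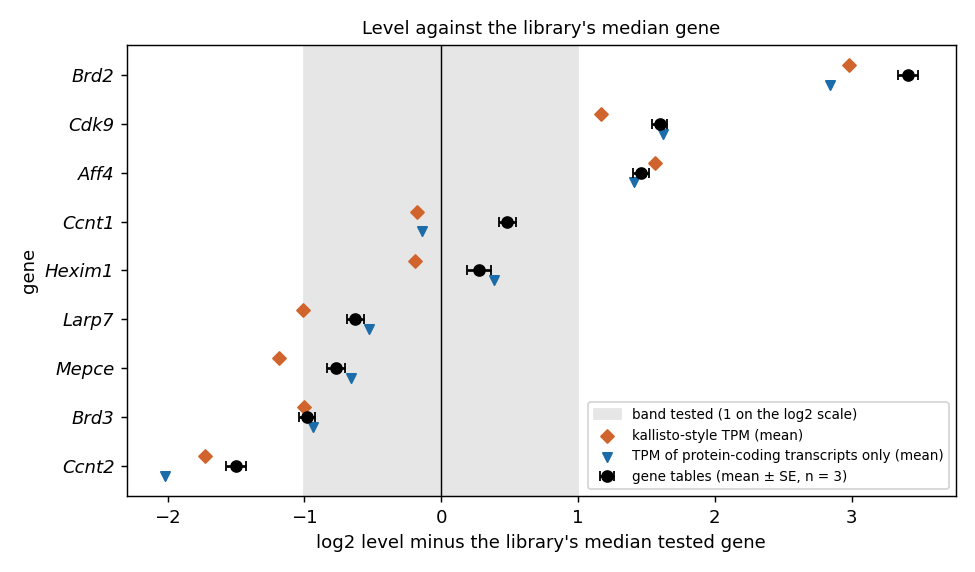
Level of each gene against the library's median tested gene (log2; black points, mean with SE over 3 libraries), with the mean from the kallisto-style values (diamonds) and from protein-coding transcripts alone (triangles). The grey band is the 1 log2 unit on either side that the test allows. Brd2, Cdk9 and Aff4 lie to its right in all 3 sets, Ccnt2 to its left in all 3, and Ccnt1 moves from 0.48 to -0.18 and -0.14.

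In order of mean TPM the genes ran Brd2, Cdk9, Aff4, Ccnt1, Hexim1, Larp7, Mepce, Brd3 and Ccnt2. Several neighbours in that order differed by little. Aff4 and Cdk9 differed by a mean of -0.14 ± 0.09 (SD, log2), Ccnt1 and Hexim1 by 0.21 ± 0.11, and Mepce and Brd3 by 0.21 ± 0.09, each with 1 direction in 3 of 3 libraries. Larp7 and Mepce did not keep a direction, although in the kallisto-style values Larp7 was the higher in each library, by a mean of 0.17. In the same values Ccnt1 and Hexim1 differed by a mean of only 0.013, and Hexim1 was the higher in replicate 2. The wider steps were Brd2 over Cdk9 (1.81 ± 0.14), Aff4 over Ccnt1 (0.98 ± 0.05), Hexim1 over Larp7 (0.90 ± 0.31) and Brd3 over Ccnt2 (0.52 ± 0.15). Over protein-coding transcripts alone Brd2 over Cdk9 was 1.22 and Aff4 over Ccnt1 was 1.55, and the latter was 1.74 in the kallisto-style values. The order of Mepce and Brd3 was turned in the kallisto-style values (-0.18), and that of Ccnt1 and Hexim1 when TPM was taken over protein-coding transcripts alone (-0.52). The BCV of each of the 9 lay below the median of all genes kept, 0.122, and their own median was 0.096. The genes kept include noncoding genes and genes with few counts and were not matched to the members in abundance, so this is no result about the group.

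**Figure D3:**
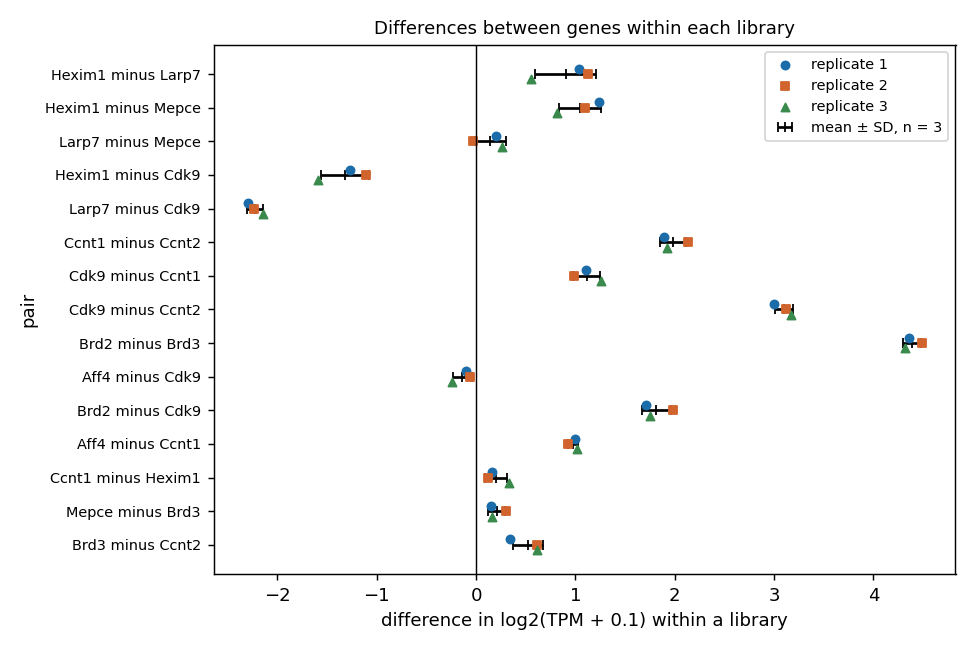
Difference in log2(TPM + 0.1) within each library for the 15 pairs (coloured points, replicates 1 to 3), with mean and SD. The points of a pair lie on 1 side of zero for every pair except Larp7 minus Mepce, and Brd2 minus Brd3 lies farthest from zero, between 4.32 and 4.49.

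The transcript tables split each gene's TPM over its annotated transcripts, and the members differed in how much of that went to protein-coding ones. Larp7, Mepce and Brd3 gave 99.2, 100.0 and 95.6% of their TPM to protein-coding transcripts, and Cdk9 and Aff4 gave 94.4 and 89.3%. Brd2, Ccnt2 and Ccnt1 gave 62.5% ± 3.37, 63.5% ± 6.36 and 59.9% ± 2.25 (SD, n = 3). Over the 8 members with several transcripts the median was 91.8%, against 97.7% over 8469 tested genes with several transcripts. Of those genes, 7.85, 8.34 and 7.04% had a share of TPM at or below that of Brd2, Ccnt2 and Ccnt1. No such rank was taken for the kallisto-style values or for shares of counts, where Ccnt1 had 75.2 and 95.3%. The leading transcript was the same in all 3 libraries for 8 of 8 members, as for 91.9% of genes, and it was protein-coding for 8 of 8, as for 95.3% of genes. These shares are the quantifier's estimates, and they have no test.

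**Figure D4:**
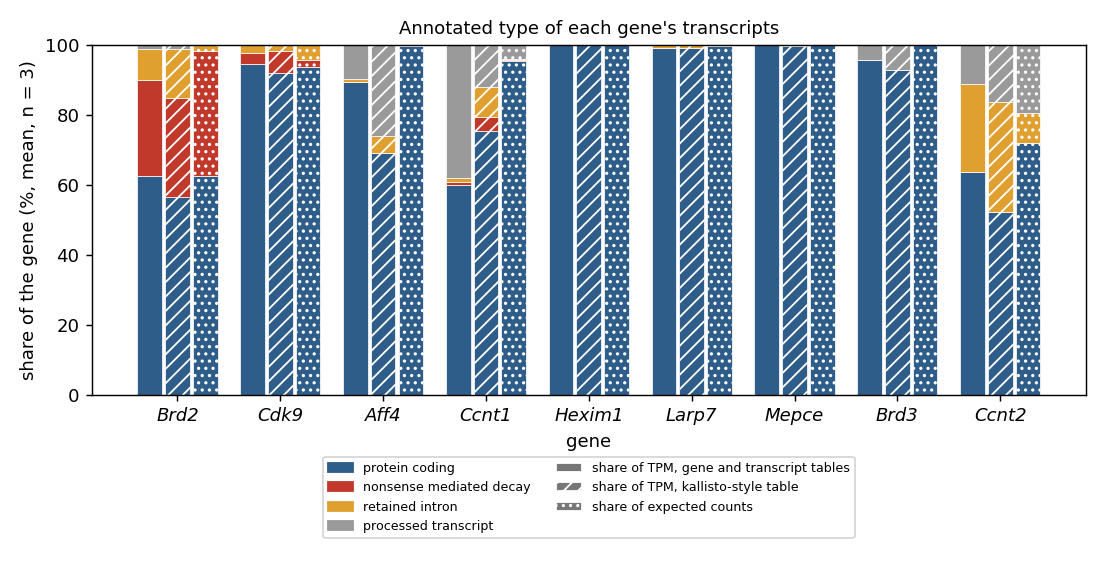
Mean share (%) of each gene in transcripts of 4 annotated types, as share of TPM in the gene's transcript table (plain), share of TPM in the kallisto-style table (hatched) and share of expected counts (dotted), over 3 libraries. Nonsense-mediated decay transcripts of Brd2 hold 27.6, 28.2 and 35.7% in the 3 measures, while the processed transcript of Ccnt1 falls from 38.2 to 12.1 and 3.99%.

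Brd2 was the member with the largest share in transcripts annotated as targets of nonsense-mediated decay, the pathway that degrades messages with an early stop codon. Its 3 such transcripts held 26.73, 26.83 and 29.16% of its TPM in replicates 1, 2 and 3, a mean of 27.6% ± 1.38 (SD), and 3.39% of genes had as much. Most of it was Brd2-207, at 21.38, 23.08 and 25.17%, from 7658, 9975 and 10055 expected counts. This share was close in the kallisto-style values (23.7%) and higher as a share of counts (34.8%). Brd2-207 is 4520 bases long and holds an added exon of 92 bases (chr17:34116598-34116689, minus strand, GRCm38). The junction that leaves this exon out, as in the protein-coding Brd2-203, and the one that takes it in are shown, with the added exon in capitals. The last 3 letters of Brd2-207 are its stop codon.
Brd2-203: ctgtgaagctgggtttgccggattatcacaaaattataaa
Brd2-207: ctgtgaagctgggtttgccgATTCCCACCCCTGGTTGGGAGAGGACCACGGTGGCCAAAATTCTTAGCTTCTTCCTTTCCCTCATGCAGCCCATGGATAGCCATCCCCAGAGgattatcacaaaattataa
The stop codon (chr17:34116317-34116319) ends 19 bases past the added exon, in an exon that both transcripts share. It is followed by 9 exon junctions and closes a coding stretch of 441 bases, against 2397 in Brd2-203. A stop codon well before the last junction is the feature by which such transcripts are recognised.

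The leading Brd2 transcript was the protein-coding Brd2-202, at 43.05, 51.65 and 47.19% of TPM, a mean of 47.3% ± 4.30 (SD, n = 3). It starts at another first exon and codes over 2259 bases. The annotation gives it support level 5, the weakest. Others at that level include Brd2-207, Aff4-203, Brd3-206, Brd3-210 and the leading Larp7 transcript, Larp7-201. Brd2-203 held 12.11, 8.84 and 6.98% and Brd2-201 held 4.58, 5.21 and 5.76%, each with the 2397 coding bases of the consensus coding set. Brd2-203 was highest in replicate 1, where Brd2-207 was lowest, and lowest in replicate 3, where Brd2-207 was highest. A gene's shares split a fixed whole in each library, so opposite movement is partly built in. The start of Brd2 overlaps H2-DMa, a gene of antigen loading on the opposite strand, at 11.14, 4.81 and 5.97 TPM. Of Brd2-201, Brd2-203 and Brd2-207, 799, 625 and 577 bases lie inside the H2-DMa gene, and none of Brd2-202. The sources used here do not say whether reads were counted by strand, so the reads of that overlap are uncertain.

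**Figure D5:**
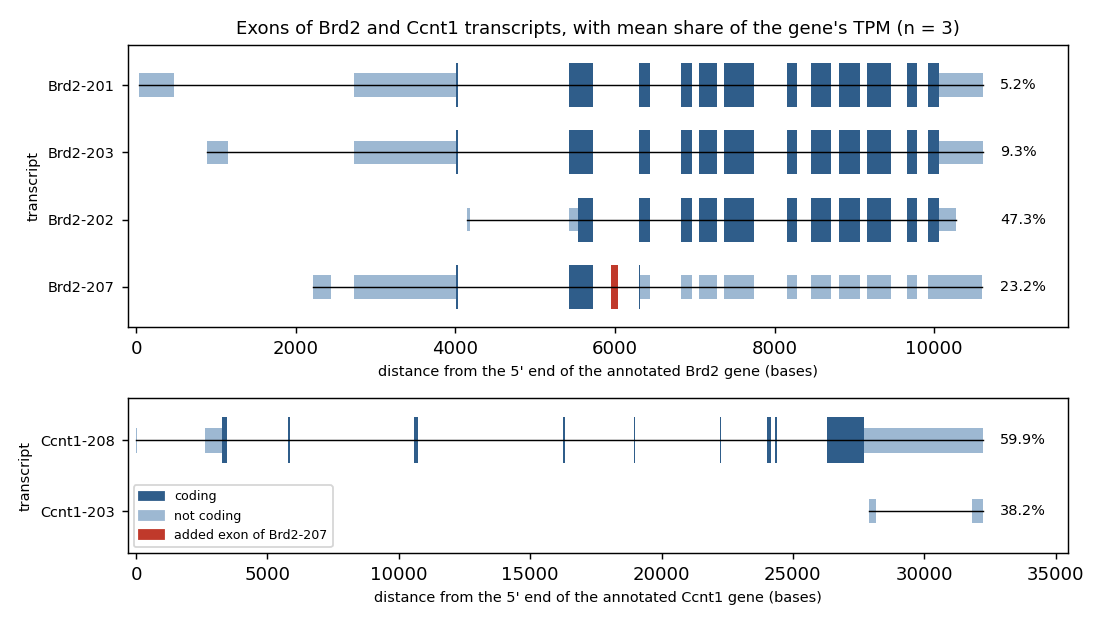
Exons of 4 Brd2 transcripts and 2 Ccnt1 transcripts by distance from the gene's 5′ end (bases), coding parts dark and tall, other parts light, the added exon of Brd2-207 in red, with each transcript's mean share of the gene's TPM (n = 3). After the added exon, coding in Brd2-207 ends within the next exon. Both exons of Ccnt1-203 lie in the last part of Ccnt1-208.

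The low coding share of Ccnt1 came from 1 short transcript. Ccnt1-203, a processed transcript of 683 bases, held 34.90, 39.41 and 40.15% of Ccnt1's TPM, a mean of 38.2% ± 2.84 (SD, n = 3), and 2.23% of genes had as much in this type. It rested on 195, 238 and 213 expected counts, 3.99% of the gene's, and the kallisto-style values gave it 12.1%. Its 2 exons (chr15:98542755-98543020 and chr15:98538699-98539115) both lie inside the 3′ UTR of Ccnt1-208, in a last exon of 5920 bases. Ccnt1-208, the full-length message, held 62.42, 59.21 and 58.09% of TPM and 95.3% of counts. Taken over protein-coding transcripts alone, Ccnt1 stood at 8.12, 5.08 and 5.14 TPM.

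Ccnt2 spread its TPM over coding, retained-intron and processed transcripts. Ccnt2-202 led, with 46.87, 50.73 and 51.99% (mean 49.9% ± 2.67 SD), and the consensus form Ccnt2-201 had 9.66, 14.39 and 16.95% (mean 13.7% ± 3.70). The kallisto-style values gave Ccnt2-202 much the same share, 52.2%, and Ccnt2-201 almost none. Transcripts with a retained intron held 28.59, 25.87 and 21.64% of TPM, a mean of 25.4% ± 3.50, and 4.50% of genes had as much. They held 8.56% of counts. Replicate 1 was highest in retained introns and lowest in both coding forms, and these shares too split a fixed whole. In raw TPM Malat1 and Neat1 were also highest in replicate 1, as was the median gene, but they were lowest in replicate 2. The kallisto-style values put both highest in replicate 3. They gave 145.5, 60.8 and 151.5 TPM for Malat1 and 13.2, 6.2 and 18.6 TPM for Neat1. The part of nuclear RNA in the retained-intron share was not tested.

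The 2 coding forms of Ccnt2 differ at the end of the protein. Ccnt2-202 splices 98 bases (chr1:127803294-127803391, plus strand, GRCm38) out of the last exon, after which its coding sequence runs on for 68 bases, against 266 in Ccnt2-201 from the same place. Both are shown from the 20 shared bases on, with capitals for the 68 bases that follow, which in Ccnt2-202 include the stop codon.
Ccnt2-202: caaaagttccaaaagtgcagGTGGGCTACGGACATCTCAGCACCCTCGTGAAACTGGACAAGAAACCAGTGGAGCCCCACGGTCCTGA
Ccnt2-201: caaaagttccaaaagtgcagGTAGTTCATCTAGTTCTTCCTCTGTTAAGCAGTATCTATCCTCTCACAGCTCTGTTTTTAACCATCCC

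Aff4 and Brd3 each had minor transcripts whose shares depended on the measure. The full-length Aff4-201 held 80.20, 80.12 and 82.53% of TPM and 99.3% of counts. Aff4-203, a processed transcript of 429 bases, held 8.29, 9.99 and 10.88% of TPM from 43.6, 53.8 and 53.5 expected counts. The annotation marks it as not supported in this organism. The incomplete coding fragment Aff4-207, marked the same way, held 9.21, 8.45 and 5.39%. The kallisto-style values raised Aff4-203 to 26.2% and lowered Aff4-201 to 54.0%. Aff4-203 leaves out an exon of 163 bases (chr11:53398237-53398399, plus strand, GRCm38). The lines show the 20 bases before the junction and the 20 after it in each transcript, with no capitals.
Aff4-201: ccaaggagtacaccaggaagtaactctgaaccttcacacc
Aff4-203: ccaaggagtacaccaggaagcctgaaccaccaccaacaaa
Brd3-202 led Brd3 with 82.29, 85.71 and 79.00% of TPM, and the kallisto-style values lowered it to 50.7%. The coding Brd3-210 held 3.92, 0 and 0% of TPM, and the kallisto-style values gave it 16.9%. Brd3-206 held 4.12, 12.02 and 2.82%, with replicate 2 apart from the others, from 32.8, 104.8 and 25.7 expected counts, and the kallisto-style values gave 17.3%. The annotation marks Brd3-206 as incomplete at its end. Brd3-206 takes in an exon of 51 bases (chr2:27453400-27453450, minus strand, GRCm38), a multiple of a codon's length, shown in capitals below the junction without it.
Brd3-202: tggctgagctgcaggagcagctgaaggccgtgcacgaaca
Brd3-206: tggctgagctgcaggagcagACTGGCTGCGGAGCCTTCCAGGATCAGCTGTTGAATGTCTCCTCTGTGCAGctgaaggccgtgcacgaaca

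The remaining members were simple. Cdk9-201 held 88.89, 89.95 and 88.46% of Cdk9's TPM, and Larp7-201 held 98.62, 99.50 and 98.22% of Larp7's. Mepce-201 held 86.42, 78.56 and 75.99%. The annotation marks the fragment Mepce-202 as incomplete at its start. It held 8.65, 18.13 and 22.30%, from 12.1, 30.9 and 34.7 expected counts. Mepce-202 was lowest where Mepce-201 was highest, which is partly built in, since shares split a fixed whole. The 3′ UTRs of the leading transcripts ranged from 212 bases in Brd2-202 to 6315 bases in Aff4-201, with 4 members below and 5 above the median of 916 bases over tested genes. Below it, beside Brd2-202, were Larp7-201 (240 bases), Cdk9-201 (486 bases) and Mepce-201 (526 bases).

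Other genes of the pathway are counted by the same test, beside the shares of all tested genes given above. Of 12 further genes of the 7SK particle and P-TEFb release, 10 were tested, 6 were called above and none below, with a median level of 1.34 on the log2 scale. The highest beside Rn7sk were Hnrnpa2b1, an RNA-binding protein that takes up 7SK released from P-TEFb (113 TPM ± 24.96, SD, n = 3), and Ppp1ca, a phosphatase that frees P-TEFb (68.7 TPM ± 15.2). Of 9 other super elongation complex genes, 6 were tested, 2 were called above and 1 below, and Aff3, Ell3 and Eaf2 were under 1 TPM. Aff1 (25.1 TPM ± 6.08), Ell2 (23.2 TPM ± 4.12) and Eaf1 (14.4 TPM ± 1.66) were highest, and Mllt3, named after its value was seen, was called below.

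Of 18 pausing and elongation factors, 6 were called above and 1, Nelfcd, below, with a median of 0.74. Hmga1, a chromatin protein (101 TPM ± 13.1, SD, n = 3), Polr2a, the largest polymerase subunit (29.1 TPM ± 7.22), and Supt4a, a subunit of the elongation factor DSIF (21.97 TPM ± 4.72), were highest. The 13 other transcriptional kinases and cyclins had a median of -0.51, and 10 were not called. Ccnl1 was called above, and Mnat1 and Cdk10, named with Nelfcd after their values were seen, were called below. Ccnl1 (21.99 TPM ± 7.74), Cdk12 (13.7 TPM ± 3.37) and Cdk11b (11.9 TPM ± 2.81) were highest. Over protein-coding transcripts alone Ccnl1 stood at 6.82 TPM, under Cdk12 (11.5 TPM) and Cdk11b (9.18 TPM), and was not called. Cdk9, at 22.2 TPM, had a higher mean than Cdk12, the highest kinase of that list.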

How the data were processed

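Per the labels, RNA was measured in 3 libraries of 1 group. The authors deposited, for each library, a gene table and a transcript table with expected counts and TPM, in columns named as RSEM writes them, and a second transcript table with estimated counts and TPM, named as kallisto writes them. Per the file headers, the transcript table gives IsoPct, each transcript's percent of its gene. The gene table's deposited bounds on TPM, whose confidence level is not stated, are not printed. Description files deposited with the tables name mm10 and GENCODE M21. The sources used here do not give the aligner, the quantifier, their versions or the use of strand. Rows that are not annotated genes (26345 of 81881) held 0.260, 0.0933 and 0.0577% of counts and entered no library size or test. The 7SL genes took 57.1, 69.6 and 62.2% of TPM, which lowers every other TPM and is one reason for setting levels against the library's median gene.

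Levels were fitted with limma 3.58.1 (treat, intercept only, trended prior, Benjamini-Hochberg) in R 4.3.3. BCV came from edgeR 4.0.16 (TMM, filterByExpr) on expected counts rounded to whole numbers. Both steps were tested on simulated data, in which the levels had the same spread for every gene, unlike the real ones. Pairs of genes were compared by an exact 2-sided sign-flip permutation test. Sequences, exons and coordinates came from GENCODE M21 on GRCm38, the build called mm10, and all 9 members matched by gene ID. Text and figures were made with Python 3.11.15. The members and lists were chosen with earlier results of these data known. The genes named are the 9 members, the 3 highest of each related list, and the 3 tested genes nearest in level, over the 3 libraries, to the highest member and to the one with the highest BCV. One gene that this rule names is not reported here. Genes named outside it (Hexim2, Aff3, Ell3, Eaf2, Mllt3, Nelfcd, Mnat1, Cdk10, the marker genes, H2-DMa and the genes that neighbour a member's start) were named after their values were seen. Alternatives were the kallisto-style values, TPM rescaled over protein-coding genes, a pseudocount of 1, no filter, a filter at 5 TPM and leaving out each replicate. TPM over protein-coding transcripts and shares of counts were added after seeing the data.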

Additional observations from a re-analysis of the deposited data

How the results depend on the processing

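Calls against the median gene depend on which genes define that median. With no filter on low values 5 members were called above and 0 below (4986 and 5463 of all genes): Ccnt1 and Hexim1 gained a call, Ccnt2 lost its own, and Larp7, Mepce and Brd3 turned to 0.73, 0.59 and 0.38 on the log2 scale. With a filter at 5 TPM 1 member was called above and 0 below (1254 and 491 of all genes): Cdk9 and Aff4 lost the call, Ccnt1 and Hexim1 turned to -0.44 and -0.65, and the 4 lowest members were not tested. The filter's own construction moves the median. With the kallisto-style values 2 members were called below, Mepce joining Ccnt2, and 1427 of all genes. Ccnt1 and Hexim1 turned to -0.18 and -0.19, and 2 pairs turned, Aff4 minus Cdk9 (0.39) and Mepce minus Brd3 (-0.18); the cause was not tested. Over protein-coding transcripts alone, chosen after seeing the data, Ccnt1 turned to -0.14 and Ccnt1 minus Hexim1 to -0.52. The members' median protein-coding share was 83.5% in the kallisto-style values and 97.4% as a share of counts, with no median over all genes taken in either measure. Leaving out each replicate in turn kept 3 members above and 1 below. No paired comparison between conditions was possible because the libraries form 1 group. Depth limits the short transcripts, several of which rest on few counts.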

Other observations

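Of the 9 genes, 4 have an annotated gene on the opposite strand that starts within 1000 bases upstream and points away, against 17.3% of tested genes. The starts lie 81 bases apart for Ccnt1 and 4930415O20Rik, 72 for Ccnt2 and 2900009J06Rik, 140 for Larp7 and Zgrf1, and 143 for Mepce and Zcwpw1. A gene's start here is its outermost annotated one. For Mepce it (chr5:137787655) belongs to the minor fragment Mepce-204. The leading Mepce-201 starts at chr5:137786663, and from there Zcwpw1 lies outside the 1000-base limit. The neighbours were at or near 0 in these libraries. 4930415O20Rik and 2900009J06Rik were listed at 0 in each, Zgrf1 stood at 0.23, 0.14 and 0.31 TPM, and Zcwpw1 at 0.40, 0.19 and 0.34 TPM in replicates 1, 2 and 3. This is a feature of the annotation, and no test was made of it.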
